A study of Rattus norvegicus with 6 samples.

Results

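The NONCODE catalogue lists long noncoding RNAs (lncRNAs), transcripts that are not known to encode a protein, and part of the rat lncRNAs in it lie beside a gene without touching it. Here these neighbours were defined as NONCODE transcripts whose span overlapped no gene with counts in at least 1 library but lay within 10000 bp of such a gene. The deposited table listed 22783 lncRNAs, and 20148 of them came from NONCODE. Of these, 3070 met the definition, while 15512 overlapped a counted gene and 1566 lay farther away. The 3070 lncRNAs formed 2902 separate loci and had 2491 different nearest genes, so lncRNAs that share a locus or a gene are not independent of each other. RNA had been sequenced from the ipsilateral side of the lumbar enlargement of female Wistar rats on day 14, after the meninges had been removed, in 3 sham and 3 bone cancer pain (BCP) libraries. BCP rats had received living Walker 256 cells, a rat mammary carcinoma line, in the marrow cavity of the left tibia, and sham rats the same cells after heat killing, so both groups carried an injected tibia. A library is RNA of a mixed tissue, in which more cells of a type and more RNA per cell cannot be told apart. The lncRNA table held between 1946315 and 2531114 counts per library and the gene table between 11779485 and 15004290.

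Some lncRNAs near a gene share its promoter region or are read from its enhancers, others are extended or unprocessed ends of the gene's own transcript, and a further class is independent of the gene. In the spinal cord such neighbours can therefore mark the activity of a chromosomal region in neurons, glia or immune cells even where their own function is unknown. The tables give no strand and no exon borders, so that a separate transcript and an extension of the neighbouring gene cannot be told apart. Whether a lncRNA lies before the start or past the end of its gene is given only for up-regulated lncRNAs whose gene has an entry in RefSeq, below. The sequences of the lncRNAs themselves were not analysed here.

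The promoters of 3 genes beside up-regulated lncRNAs described below are shown because they hold the gamma-activated site (GAS) TTCNNNGAA, the letters that STAT proteins recognise after interferon and cytokine signals. The window was the 250 bases before the gene's start in RefSeq (GRCr8), searched on both strands for these letters and for the interferon-stimulated response element (ISRE) GAAANNGAAA, with which a GAS can share its GAA. Of 32 genes looked up, namely the nearest genes of the up-regulated lncRNAs with March1 and Itga4, 26 had an entry and 4 of these held a GAS, against 7.67% of all 33469 promoters. March1, which is among the 4, and Itga4 were not nearest genes. They were up-regulated genes within 10000 bp of such a lncRNA, taken in with their values known. The ISRE occurred in 1 of the 26, against 3.41% of all promoters. Capitals mark the GAS in Irf1 (chr10:38417685-38417934, plus strand), Samhd1 (chr3:166214411-166214660, minus strand) and March1, named Marchf1 in RefSeq (chr16:28880840-28881089, minus strand).
Irf1: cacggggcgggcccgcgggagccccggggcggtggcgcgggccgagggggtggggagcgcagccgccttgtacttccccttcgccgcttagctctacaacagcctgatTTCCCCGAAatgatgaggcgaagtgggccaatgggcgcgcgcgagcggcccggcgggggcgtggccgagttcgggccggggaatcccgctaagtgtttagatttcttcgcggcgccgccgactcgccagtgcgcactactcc
Samhd1: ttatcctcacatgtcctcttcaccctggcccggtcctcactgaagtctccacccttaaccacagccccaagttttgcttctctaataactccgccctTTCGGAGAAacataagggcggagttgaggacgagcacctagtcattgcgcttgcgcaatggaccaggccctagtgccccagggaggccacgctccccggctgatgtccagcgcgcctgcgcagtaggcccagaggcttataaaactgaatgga
March1: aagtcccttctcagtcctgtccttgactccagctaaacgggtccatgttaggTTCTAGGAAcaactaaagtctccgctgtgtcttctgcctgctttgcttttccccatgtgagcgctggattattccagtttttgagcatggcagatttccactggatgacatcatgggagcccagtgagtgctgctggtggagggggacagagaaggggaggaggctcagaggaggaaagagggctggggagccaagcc
A match of letters is a description of the window and not a binding site, and the promoters of the lncRNAs were not known. The RefSeq strands were taken to hold in the build of the lncRNA positions. On them, the lncRNAs near Irf1, Samhd1 and March1 lay past the gene's end. The windows shown thus stood at the other end of each gene and not beside the lncRNA. That position held for the other nearest genes with an entry, except Ggta1 and Ccdc115, whose up-regulated lncRNAs lay before the start. The same letters stood in the window of Slfn3, whose lncRNA is described with the genes that did not pass.

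As a class, the lncRNAs near genes were mostly single blocks of sequence. For 80.7% of them the transcript was as long as its span on the chromosome, which is what a transcript without introns gives, compared with 39.6% of the NONCODE lncRNAs that overlapped a gene and 61.1% of those farther away. Their median length was 767 bases, against 643 and 572 bases in the other classes. The median distance to the nearest gene was 1572 bp, with quartiles of 506 and 3632 bp, and 1167 lncRNAs (38.0%) lay within 1000 bp. At the limit of the definition, the farthest one lay 9994 bp from its gene and the next NONCODE lncRNA outside it 10002 bp. A second counted gene lay within 10000 bp for 1125 of the 3070. Spans of 33 overlapped a listed gene without counts.

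Per length, they had the highest median level of the 3 NONCODE classes. Their median FPKM, the count scaled to transcript length and sequencing depth as the authors calculated it, lay between 2.40 and 2.49 in the sham libraries and between 2.48 and 2.58 in the BCP libraries. The lncRNAs that overlapped genes had medians of 0.921 to 0.945 and 0.953 to 1.01, and those farther away of 0.587 to 0.630 and 0.613 to 0.652. The values are a description of the libraries, without a test between classes. Against their own nearest genes the lncRNAs were low, since 468 of the 2042 tested ones (22.9%) had a higher mean FPKM than the gene. In all they took 27.5%, 28.1% and 27.6% of the lncRNA counts in sham (replicates 1 to 3) and 27.1%, 27.4% and 27.6% in BCP. The mean shares of 27.7% ± 0.305 and 27.4% ± 0.274 (SD, n = 3) were compared in an exact two-sided permutation test (p = 0.2, where 3 against 3 libraries cannot go below 0.1).

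The comparison of BCP with sham asks which lncRNAs of the spinal cord changed with the tumor. Of the 3070 lncRNAs near genes 2042 had enough counts to be tested, and 31 were up-regulated in the BCP libraries while none was down-regulated. The call required an adjusted p under 0.05 in edgeR's quasi-likelihood test and a log2 fold change (log2FC) over 1, that is, over 2-fold. The 31 made up 1.52% of the tested ones, against 1.14% up-regulated and 0.0740% down-regulated among all 12157 tested lncRNAs, so their share was close to that of the table as a whole. At an unadjusted p under 0.05, 176 were higher and 159 lower in BCP, and DESeq2 called 36 up-regulated and 1 down-regulated. The log2FC of the 31 ranged from 1.08 to 4.80 with a median of 1.75, whereas the median of all 2042 was -0.02, with the 5th percentile at -0.49 and the 95th at 0.64. In each of the 31 every BCP library lay above every sham library. Such a separation also occurred in 264 tested lncRNAs (12.9%) upwards and 255 (12.5%) downwards, against 11.0% and 9.65% of all tested lncRNAs. Single-block transcripts made up 28 of the 31, and 87.7% of the tested lncRNAs.

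The calls depended on the number of libraries. When sham library 1, 2 or 3 was left out, 19, 10 and 15 of the 31 were still called, and without BCP library 1, 2 or 3 the number was 17, 12 and 10. Every one of the 31 stayed higher in BCP in these fits, with log2FC between 0.93 and 7.00, and the highest adjusted p was 0.227 (edgeR's quasi-likelihood test). The highest log2FC belonged to the lncRNA beside Runx3 without sham library 1, which leaves it 1 sham count. Called in all 6 of these fits were 9 lncRNAs, those beside Trpm2, Hcar2, Cx3cr1, Lacc1, Glipr2, Elf4, A3galt2, Rab43 and AABR07019083.1.

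**Figure D1:**
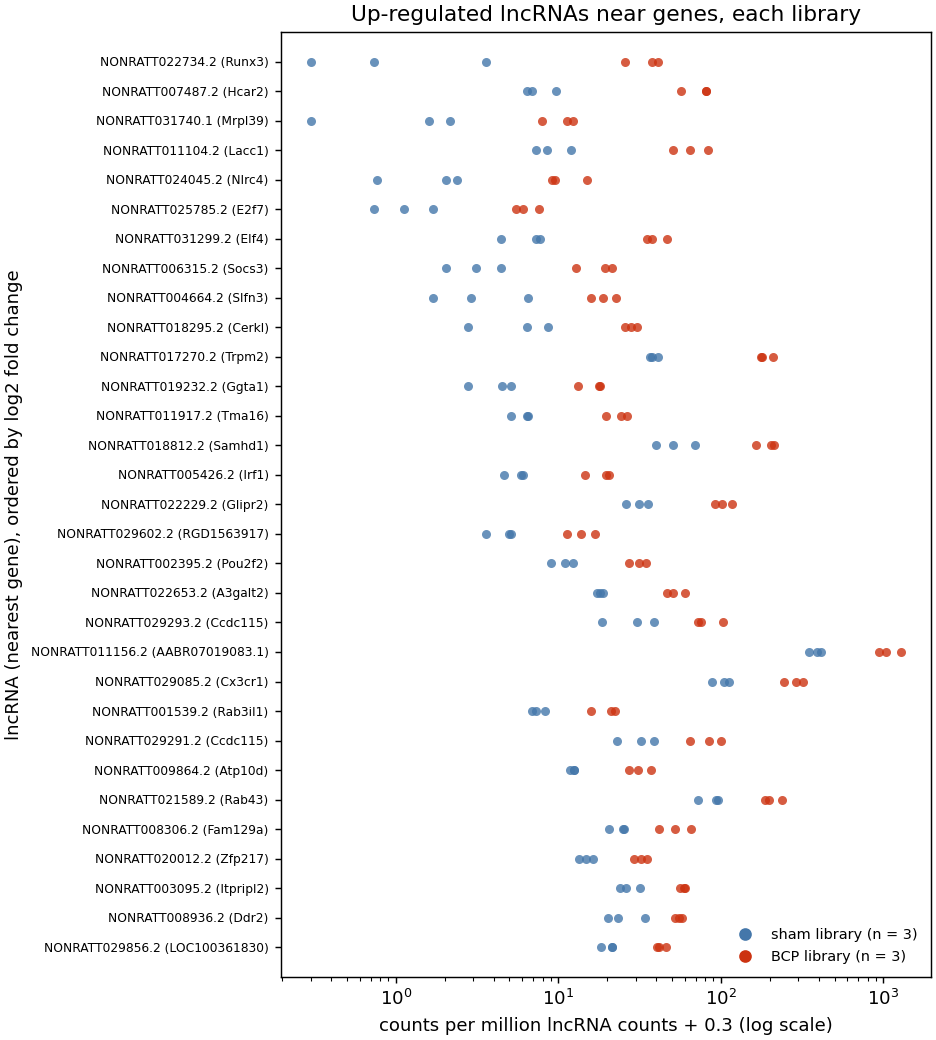
CPM, the counts scaled to the library total, with 0.3 added on a log axis, of the 31 up-regulated lncRNAs in each of the 3 sham and 3 BCP libraries, ordered by log2FC, with the nearest gene in brackets. In each row the BCP points lie to the right of all sham points, from NONRATT022734.2 (log2FC 4.80) at the top to NONRATT029856.2 (1.08) at the bottom.

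The up-regulated lncRNA with the smallest p was beside an ion channel gene. NONRATT017270.2 (chr20:11482118-11482879 in Rnor_6.0, the build of all lncRNA positions here) ended 67 bp from Trpm2, a calcium-permeable channel opened under oxidative stress. It had 80, 83 and 99 counts in sham and 336, 387 and 436 in BCP, given here and further on in the order of replicates 1 to 3. No BCP library came near the sham range, and the level rose from 38.2 ± 2.4 to 187 ± 18 CPM, the counts scaled to the normalized total of the lncRNA table (SD, n = 3), a log2FC of 2.29 (standard error, SE, 0.12 and adjusted p = 0.000102 by edgeR). Trpm2 itself had a log2FC of 1.96 (SE 0.09).

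NONRATT007487.2 (chr12:38161648-38162391) lay 102 bp from Hcar2, the receptor for niacin and beta-hydroxybutyrate. The sham libraries had 20, 14 and 16 counts and the BCP libraries 109, 175 and 169, with a wide gap between the groups. Its log2FC was 3.30 (SE 0.24, adjusted p = 0.000809 by edgeR), beside 2.77 for Hcar2. NONRATT029085.2 (chr8:128738685-128739865), 891 bp from the fractalkine receptor gene Cx3cr1, was more abundant, with 224, 258 and 212 counts in sham and 466, 631 and 669 in BCP. It rose by a log2FC of 1.48 (SE 0.13, adjusted p = 0.00253 by edgeR) and Cx3cr1 by 1.42, so the changes of both were nearly equal.

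Lacc1 encodes an enzyme of macrophage metabolism, and NONRATT011104.2 (chr15:59204588-59205134) lay 4695 bp away from it. Counts of 25, 16 and 20 in sham and 97, 180 and 134 in BCP gave a log2FC of 2.87 (SE 0.26, adjusted p = 0.00268 by edgeR), beside 2.45 for the gene. NONRATT018295.2 (chr3:66267375-66268862) lay 85 bp from Cerkl, a ceramide kinase-like gene with at most 6 counts in a library that was not tested. The lncRNA had 13, 19 and 6 counts in sham and 53, 66 and 53 in BCP, a log2FC of 2.30 (SE 0.38, adjusted p = 0.0231 by edgeR). The gene AABR07052611.1, at 88 bp, had 2, 1 and 2 counts in sham and 3, 9 and 10 in BCP and was not tested either. Itga4, an integrin subunit of leukocytes, lay 3415 bp from the lncRNA and rose by a log2FC of 2.28, with 48, 37 and 53 counts in sham and 180, 218 and 223 in BCP. Of the 3 genes in reach of this lncRNA, Itga4 was thus the one that could be tested.

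The next 4 lncRNAs lay near Elf4, Pou2f2, Runx3 and Socs3. NONRATT031299.2 (chrX:135237159-135238261), 2190 bp from the ETS factor gene Elf4, had 15, 17 and 10 counts in sham and 67, 101 and 78 in BCP, a log2FC of 2.67 (SE 0.27, adjusted p = 0.00363 by edgeR), beside 2.27 for Elf4. Bcorl1, a corepressor gene 3320 bp away on this locus, had a log2FC of -0.27. Near Pou2f2, which encodes the lymphocyte factor Oct-2, NONRATT002395.2 (chr1:81961993-81963702) had 23, 20 and 29 counts in sham and 60, 59 and 72 in BCP. Its log2FC was 1.55 (SE 0.22, adjusted p = 0.0132 by edgeR) and that of Pou2f2 1.95, while Zfp574 at 4664 bp had -0.28.

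NONRATT022734.2 (chr5:153532201-153533094) was the lncRNA with the largest log2FC, 1064 bp from Runx3, a transcription factor of T and natural killer cells. It had 7, 1 and 0 counts in sham and 49, 82 and 85 in BCP, a log2FC of 4.80 (SE 0.79, adjusted p = 0.0425 by edgeR). Runx3 had no count in any sham library and 28, 43 and 49 counts in BCP, at least 43.3-fold higher when the sham group is set to a floor of 3 counts. The lncRNA was thus detected in 2 sham libraries in which the gene was not. NONRATT006315.2 (chr10:106973849-106974402), 776 bp from Socs3, the feedback inhibitor of cytokine receptors, had 6, 4 and 10 counts in sham and 24, 46 and 40 in BCP. Its log2FC of 2.58 (SE 0.39, adjusted p = 0.016 by edgeR) stood beside 2.93 for Socs3.

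Another 3 were near Irf1, Samhd1 and Nlrc4. NONRATT005426.2 (chr10:39123134-39124364) lay 6603 bp from Irf1, the interferon regulatory factor whose promoter is shown above. It had 12, 10 and 14 counts in sham and 37, 44 and 30 in BCP, a log2FC of 1.76 (SE 0.28, adjusted p = 0.0211 by edgeR), and leaving out any 1 library moved the adjusted p to between 0.0524 and 0.097. Irf1 rose by 3.15, from 190, 170 and 111 to 966, 1534 and 1408 counts. NONRATT018812.2 (chr3:153208978-153210824) lay 5 bp from Samhd1, an enzyme that degrades the building blocks of DNA and restricts viruses, and its NONCODE name also carries the gene's symbol. Counts of 148, 116 and 96 in sham and 313, 463 and 426 in BCP gave a log2FC of 1.86 (SE 0.22, adjusted p = 0.00993 by edgeR), and Samhd1 rose by 1.84. NONRATT024045.2 (chr6:22195185-22195995), 935 bp from the inflammasome gene Nlrc4, had 1, 4 and 5 counts in sham and 17, 20 and 31 in BCP, a log2FC of 2.87 (SE 0.49, adjusted p = 0.0257 by edgeR), beside 2.32 for Nlrc4.

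The interferon genes differed among the sham libraries. The summed level of the 26 tested genes in the interferon list was 2419, 1888 and 761 CPM in sham and 4103, 5907 and 4569 CPM in BCP. NONRATT004315.2, 1010 bp from the interferon-inducible GTPase gene Igtp and chosen after its values were seen, followed the same order with 376, 345 and 209 counts in sham and 888, 1462 and 1198 in BCP. It was not called with all libraries (log2FC 2.05, adjusted p = 0.0707 by edgeR) and was called without sham library 3 (log2FC 1.79, adjusted p = 0.0199). The lncRNAs near Irf1 and Isg15 did not have this order in sham, with 12, 10 and 14 and with 12, 12 and 22 counts. Those near Mx1 and Irf9 had their fewest sham counts in library 3, with 149, 156 and 120 and with 132, 161 and 93 counts. The part of this spread in the results was not tested.

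NONRATT011917.2 (chr16:24998707-24999344) had 13, 11 and 15 counts in sham and 46, 42 and 55 in BCP, a log2FC of 2.01 (SE 0.26, adjusted p = 0.00984 by edgeR). Its nearest gene, Tma16 at 1701 bp, which is linked to ribosome assembly, had a log2FC of 0.07 (SE 0.23). March1, a ubiquitin ligase that removes MHC class II molecules from the surface of antigen-presenting cells, lay 2322 bp away and rose by 1.54, from 14, 23 and 16 to 42, 46 and 55 counts. Here the second gene and not the nearest one had passed the test.

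The remaining calls lay beside genes of other functions. NONRATT022653.2 (chr5:146946733-146947772), 853 bp from the glycosyltransferase gene A3galt2, had 38, 39 and 45 counts in sham and 97, 130 and 97 in BCP, a log2FC of 1.55 (SE 0.17, adjusted p = 0.0042 by edgeR), whereas A3galt2 at 0.93 stayed under the threshold on the fold change. NONRATT021589.2 (chr4:119691593-119694513), 500 bp from the vesicle transport gene Rab43, rose from 87.3 ± 13 to 207 ± 28 CPM (SD, n = 3), a log2FC of 1.25 beside 1.36 for Rab43. NONRATT022229.2 (chr5:59446871-59448053), 224 bp from Glipr2, rose from 30.7 ± 5.0 to 103 ± 12 CPM, a log2FC of 1.75 beside 1.53. The most abundant of the 31 was NONRATT011156.2 (chr15:87384631-87388492), with 840, 950 and 843 counts in sham and 1807, 2249 and 2687 in BCP. It lay 1118 bp from the gene AABR07019083.1, which had only 27 to 41 counts in sham and 80 to 106 in BCP, and both changed by a similar log2FC, 1.50 and 1.58. Per length the lncRNA also stood above the gene, with a mean FPKM of 27.3 against 6.39.

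The other 14 called lncRNAs were named after their values were seen, as were those near Cerkl, Socs3 and Nlrc4. Those beside Atp10d (21 bp), Zfp217 (114 bp), E2f7 (128 bp), Fam129a (325 bp), Ddr2 (2698 bp), Ggta1 (3525 bp) and RGD1563917 (6292 bp) had a nearest gene that was called as well. E2f7 is a repressor of the cell cycle and Ddr2 a collagen receptor. NONRATT025785.2 beside E2f7 had the lowest counts of the group, with 3, 1 and 2 in sham and 10, 16 and 12 in BCP (log2FC 2.72). NONRATT029602.2 lay beside RGD1563917 and carries the name of Sp100, which belongs to a family of similar genes, so the assignment of its reads is uncertain. The same holds for NONRATT004664.2 beside the Schlafen gene Slfn3, which had 3, 6 and 15 counts in sham and 30, 49 and 39 in BCP. Slfn3 had 2120, 1625 and 352 counts in sham and 5335, 7627 and 7085 in BCP, and with this spread its log2FC of 2.36 did not pass (adjusted p = 0.0887 by edgeR). For Slfn3 sham library 3 was the low one and for its lncRNA it was the high one.

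The genes Itpripl2, Rab3il1 and Ccdc115 passed the adjusted p but stayed under 2-fold, with log2FC of 0.70, 0.92 and 0.52, and LOC100361830 did not pass (log2FC 0.53, SE 0.25, adjusted p = 0.138 by edgeR). Ccdc115 had 2 called lncRNAs, NONRATT029291.2 at 4513 bp and NONRATT029293.2 at 9673 bp, with log2FC of 1.42 and 1.53. NONRATT031740.1, 4013 bp from the mitochondrial ribosome gene Mrpl39, had 4, 3 and 0 counts in sham and 23, 24 and 16 in BCP (log2FC 3.24, SE 0.63, adjusted p = 0.0448 by edgeR), while Mrpl39 had a log2FC of 0.09 (SE 0.15). No gene within 10000 bp of 8 of the 31 was up-regulated, those beside A3galt2, Itpripl2, LOC100361830, Rab3il1, Slfn3 and Mrpl39 and the pair beside Ccdc115.

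The neighbouring genes give the second comparison. Of the 2491 nearest genes 2230 were tested, and 76 (3.41%) were up-regulated, against 6.35% of all 14908 tested genes. One nearest gene (0.0448%) was down-regulated, against 0.107% of all genes. This was 1700020D05Rik, with 20, 26 and 18 counts in sham and 12, 8 and 8 in BCP (log2FC -1.06, adjusted p = 0.0396 by edgeR), and it was named after its value was seen. No nearest gene was called down-regulated by DESeq2, or by edgeR without sham library 1, sham library 2 or BCP library 2. Its 3 lncRNAs, at 8007 to 9430 bp, had log2FC between -0.30 and -0.13. Without a threshold on the fold change 299 of the 2230 tested nearest genes were higher and 331 lower. Of all 14908 tested genes 2352 (15.8%) were higher and 1805 (12.1%) lower, so the nearest genes had more lower than higher ones and the whole table the reverse. The biological coefficient of variation was 7.72% in the gene table and 33.4% in the lncRNA table.

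Changes of the lncRNAs stood mainly beside changed genes. Among the 46 tested lncRNAs whose nearest gene was up-regulated 21 were up-regulated (45.7%), and among the other 1996 the number was 10 (0.501%). The median log2FC of the 46 was 1.44, with quartiles of 0.35 and 2.08, beside a median of 1.82 for their genes. In the other 1996 the median was -0.02, with quartiles of -0.18 and 0.16. Counting every gene within 10000 bp, 75 tested lncRNAs (3.67%) had an up-regulated gene in reach, and these included 23 of the 31. The lncRNA and gene values come from the same libraries, so they are set side by side and are not independent.

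**Figure D2:**
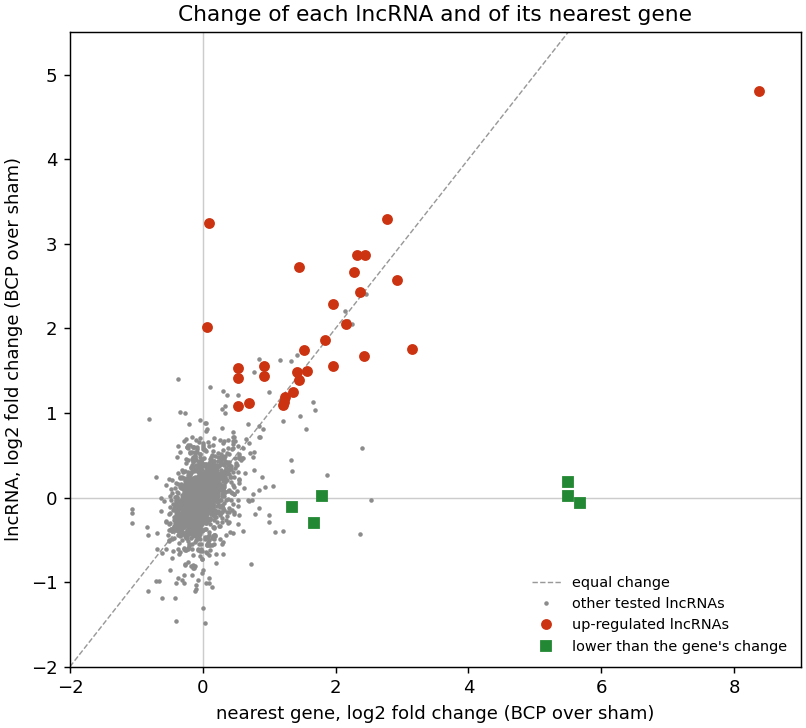
Log2FC (BCP over sham) of each tested lncRNA near a gene against that of its nearest tested gene, with equal change as a dashed line. Most of the 30 up-regulated lncRNAs with a tested nearest gene (red circles) lie near the line. A further 6 lncRNAs (green squares) have log2FC between -0.30 and 0.18 beside a gene that rose. The horizontal position of the lncRNA at the top right rests on 0 sham counts of Runx3.

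Distance was compared within the 46 lncRNAs beside an up-regulated gene. Of 23 within 1000 bp 13 were up-regulated, with a median log2FC of 1.48 beside 1.56 for their genes, and of 23 farther away 8 were, with medians of 1.09 and 2.15. The counts are small and the difference between the distances was not tested. Among all tested lncRNAs up-regulated ones occurred at every distance, with 4 of 134 within 100 bp, 7 of 386 from 101 to 500 bp and 4 of 277 from 501 to 1000 bp. Farther away they were 3 of 419 from 1001 to 2000 bp, 10 of 565 from 2001 to 5000 bp and 3 of 261 from 5001 to 10000 bp.

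**Figure D3:**
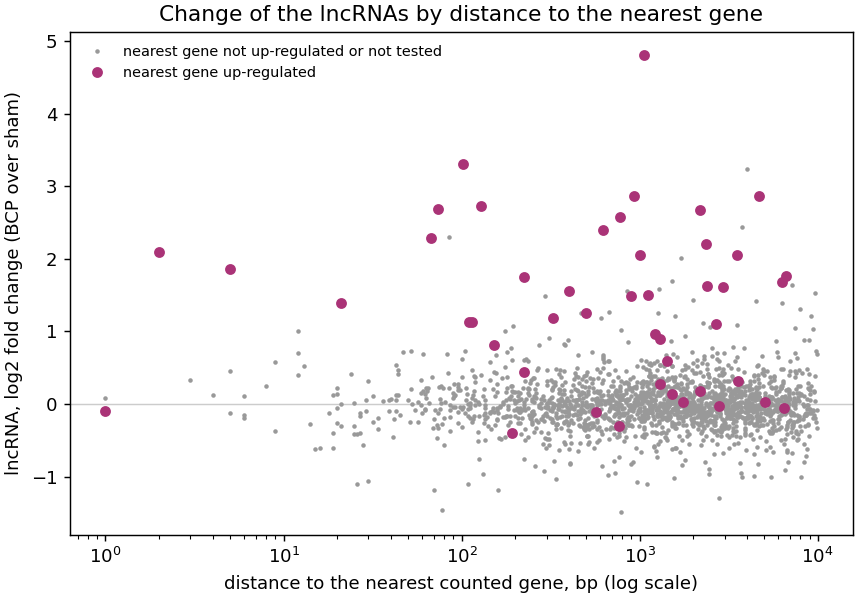
Log2FC of each tested lncRNA against the distance to its nearest counted gene in bp, on a log axis, with the 46 lncRNAs beside an up-regulated gene as large purple points. The purple points above a log2FC of 1 lie from 2 bp to 6603 bp from the gene, and the grey points, whose nearest gene was not up-regulated or not tested, center on -0.02.

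Whether a lncRNA changed to another extent than its nearest gene was tested on the difference of their log2 CPM in each library with limma. None of 1931 lncRNAs near genes changed more upwards than its gene by the thresholds of the call, against 0.0951% of the 10519 pairs in the whole table. Pairs of the whole table include lncRNAs that overlap their gene. Of the lncRNAs near genes 6 had an unadjusted p under 0.05 (limma) with a difference over 1. DESeq2 was not applied to these differences. More downwards than the gene changed 6 (0.311%), against 0.200% in the whole table. No called lncRNA was among them. Of the 21 called lncRNAs with a called nearest gene, the difference was under 0.5 in 18, and the median standard error of a difference was 0.22. The log2 CPM had a prior count of 2, which understates changes of rows near 0. Beside Runx3 the difference was -0.09, with edgeR log2FC of 4.80 for the lncRNA and 8.38 for the gene. The lowest adjusted p over all called lncRNAs was 0.147 (limma), which does not show that their changes were equal to those of the genes. On the scale with the prior count, the widest downward difference among them was that of the lncRNA near Irf1, at -1.55 (SE 0.36, adjusted p = 0.28 by limma).

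The 6 lncRNAs below their genes did not pass the test between the groups themselves, while each gene rose. Cd247, which encodes the zeta chain of the T cell receptor, had 0, 2 and 0 counts in sham and 36, 31 and 32 in BCP, a 53.6-fold rise with an exact 95% counting interval from 14.4 to 448. NONRATT008912.2 (chr13:84073584-84074921), 2184 bp away, had 36, 54 and 27 counts in sham and 35, 43 and 43 in BCP, and NONRATT008913.2 (chr13:84076468-84077102), 5068 bp away, had 36, 32 and 34 and 26, 34 and 34. In both the groups overlapped. Their differences from the gene were -3.63 (SE 0.25, adjusted p = 0.00192 by limma) and -3.85 (SE 0.36, adjusted p = 0.00975 by limma) on a log2 scale with a prior count of 2, which understates the rise of a gene near 0. Pou2f1, at 8711 and 6530 bp, had a log2FC of -0.07.

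Tigit, an inhibitory receptor of T and natural killer cells, had 1, 0 and 0 counts in sham and 15, 24 and 27 in BCP, a 71.4-fold rise with an exact 95% counting interval from 12.4 to 2863. At 6459 bp, NONRATT006971.2 (chr11:61994178-61996918) had 1175, 1285 and 1330 counts in sham and 998, 1094 and 1193 in BCP, or 553 ± 6.8 and 531 ± 35 CPM (SD, n = 3). The difference was -3.46 (SE 0.23, adjusted p = 0.0111 by limma). Both intervals cover counting error only.

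Cdca8 and Ska3 serve chromosome segregation in dividing cells. NONRATT022611.2 (chr5:142909498-142910537), 768 bp from Cdca8, had 153, 199 and 205 counts in sham and 126, 143 and 137 in BCP. All BCP libraries were below the sham libraries in CPM, 81.0 ± 8.3 in sham against 65.6 ± 0.11 in BCP (SD, n = 3), and the log2FC of -0.30 did not pass (adjusted p = 0.335 by edgeR), while Cdca8 rose by 1.67 from 23, 20 and 22 to 48, 81 and 64 counts. Epha10, at 1103 bp on this locus, had a log2FC of -0.44. NONRATT010483.2 (chr15:38075657-38076159), 1750 bp from Ska3, had 45, 33 and 39 counts in sham and 31, 35 and 42 in BCP, a log2FC of 0.02 beside 1.80 for Ska3. RGD1561590, at 2035 bp from this lncRNA, had a log2FC of 0.11 and a mean FPKM of 11.9, against 1.39 for Ska3. NONRATT010483.2 was named after its values were seen and passed in none of the 6 fits without 1 library. NONRATT013994.2 (chr19:827629-830309), 568 bp from the chemokine-like gene Cmtm3, had 498, 462 and 516 counts in sham and 373, 414 and 449 in BCP, a log2FC of -0.11 beside 1.34 for Cmtm3. In the fits without 1 library the pair beside Cd247 was past the thresholds in all 6, the lncRNA beside Cmtm3 in 5 and those beside Tigit and Cdca8 in 4.

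**Figure D4:**
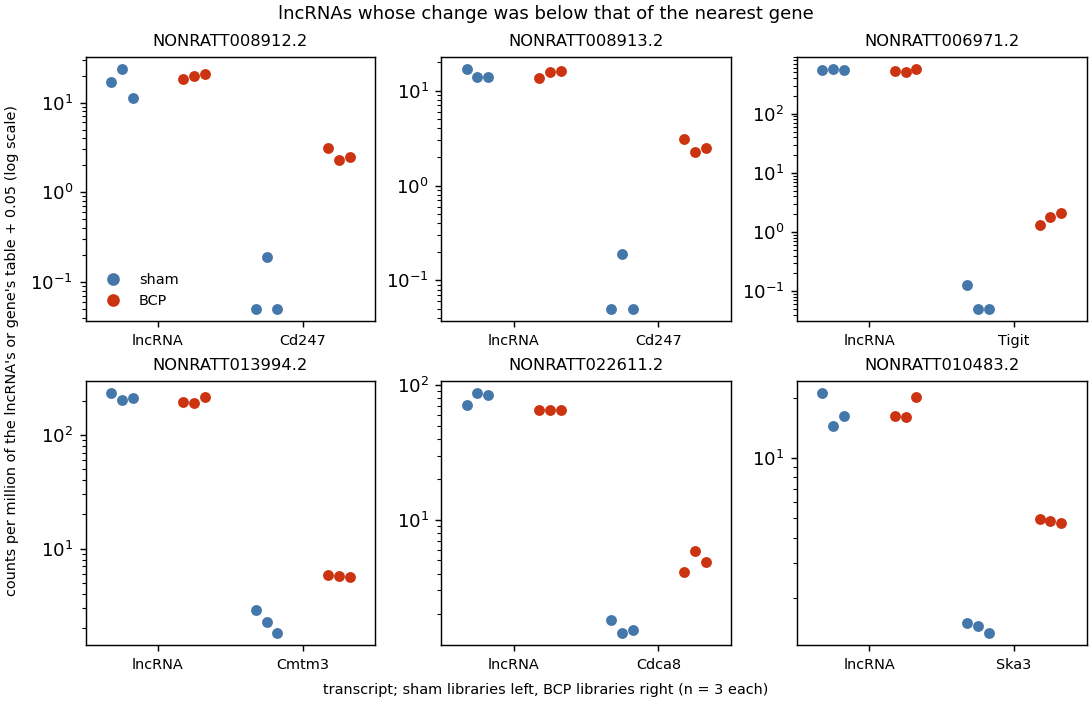
CPM of each lncRNA (scaled to lncRNA counts) and of its nearest gene (scaled to gene counts), with 0.05 added on a log axis, in the 3 sham (blue) and 3 BCP (red) libraries of the 6 pairs in which the lncRNA changed less than the gene. The genes rise between the groups, by a log2FC of 1.34 for Cmtm3 to over 50-fold for Cd247 and Tigit, beside lncRNAs with log2FC between -0.30 and 0.18.

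With the adjusted p alone, 47 lncRNAs near genes were higher in BCP (2.30%), against 1.57% of all tested lncRNAs, and 19 were lower (0.930%), against 0.395%. The 16 higher ones that stayed under 2-fold included NONRATT012211.2 (chr17:5409534-5411195), 311 bp from the N-terminal acetyltransferase gene Naa35, chosen after its values were seen. It had 282, 305 and 299 counts in sham and 449, 485 and 575 in BCP, a log2FC of 0.91 (SE 0.10, adjusted p = 0.0042 by edgeR), and Naa35 had -0.04 (SE 0.07). Golm1, a gene of the Golgi membrane at 496 bp, rose by a log2FC of 0.78 (SE 0.11, adjusted p = 1.08e-05 by edgeR), so that the second gene moved with the lncRNA. The difference of 0.94 from Naa35 had an adjusted p of 0.0289 (limma), the only one upwards with an adjusted p under 0.05, and lost it in each fit without 1 library (0.0524 to 0.115).

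The 19 lower ones were all named after their values were seen, and 1 of their nearest genes, Slc1a2, was in a list of cell type markers. NONRATT018400.2 (chr3:92670322-92674698), 4678 bp from the astrocyte glutamate transporter gene Slc1a2, had 30046, 30065 and 33678 counts in sham and 21591, 23800 and 23324 in BCP. Its log2FC was -0.30 (SE 0.03, adjusted p = 0.00334 by edgeR), beside -0.37 for Slc1a2. The astrocyte list as a whole did not fall, with a median log2FC of 0.03 over 10 tested genes. Its summed level was 8416 to 8700 CPM in sham and 9412 to 11523 CPM in BCP. The list of oligodendrocytes and precursors went from 40358 to 45779 CPM in sham to 29221 to 32438 CPM in BCP. The part of these levels in the changes of the lncRNAs was not tested. A pair of lncRNAs at 261 and 854 bp from Kcnj10, the potassium channel of astrocytes and oligodendrocytes, had log2FC of -0.33 and -0.27, beside -0.43 for the gene. Tppp, which stabilises microtubules in oligodendrocytes, had a neighbour at 1062 bp with 5944, 6122 and 6899 counts in sham and 4273, 4771 and 4628 in BCP, a log2FC of -0.32 beside -0.38. Cep72, a centrosome gene at 2127 bp from the same lncRNA, was up-regulated (log2FC 1.29, SE 0.32, adjusted p = 0.0043 by edgeR).

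The lncRNAs near Kif1a, a motor of axonal transport, Kcna1, a voltage-gated potassium channel, and Cntn2, an adhesion molecule of axons, had log2FC of -0.24, -0.22 and -0.50. The genes themselves had -0.27, -0.25 and -0.31. Among the 19 lower ones, the largest decrease was that of NONRATT028521.2, 4386 bp from the zinc finger factor gene Zbtb16. It had 111, 165 and 188 counts in sham and 64, 85 and 61 in BCP (log2FC -0.99, SE 0.19, adjusted p = 0.0464 by edgeR). It was the 1 lncRNA that DESeq2 called down-regulated. The remaining ones lay beside Klhdc7a, Nkain2, Map6d1, Snhg11, Ppp1r16b and Cds2, with 2 beside Pex5l and 3 at the Meg3 locus.

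**Figure D5:**
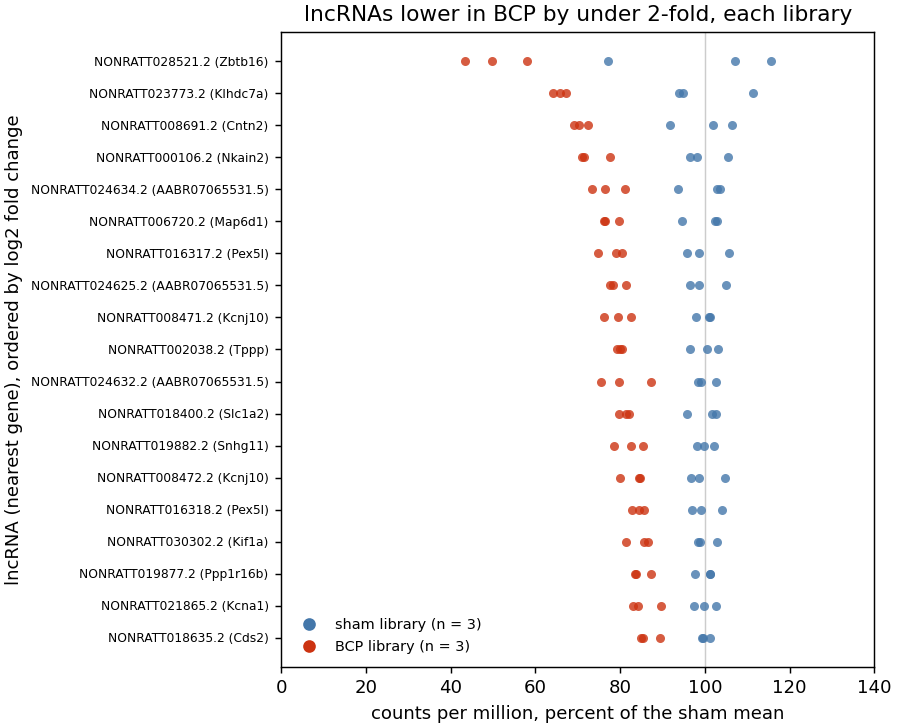
CPM of the 19 lncRNAs that were lower in BCP by less than 2-fold, as a percentage of the sham mean, in each of the 3 sham (blue) and 3 BCP (red) libraries, ordered by log2FC with the nearest gene in brackets. In each row the BCP points lie left of all sham points, from NONRATT028521.2 beside Zbtb16 (log2FC -0.99) at the top to NONRATT018635.2 beside Cds2 (-0.21) at the bottom.

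The Meg3 locus on chromosome 6 was the gene with most lncRNAs near it. AABR07065531.5 had 7, of which 6 were tested. The locus is called so here because some of the 7 carry the name RGD1566401, an older symbol of the maternally expressed lncRNA gene Meg3 in RefSeq. Their log2FC ranged from -0.46 to -0.04 with a median of -0.32, and the gene had -0.34 (SE 0.06). NONRATT024625.2 (chr6:133663396-133667149) had 15775, 17259 and 19403 counts in sham and 11925, 12917 and 12532 in BCP, and NONRATT024634.2 (chr6:133684968-133687533) had 11205, 13273 and 13935 and 8711, 8948 and 8953. Both passed the adjusted p (0.0042 and 0.0128 by edgeR), with log2FC of -0.34 and -0.38. The seventh, NONRATT024618.2, had 66 counts in BCP library 3 and none in the other libraries, and was below the filter.

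Of the 5 lncRNAs with the highest mean FPKM, 3 have been described, those at 261 and 276 FPKM on the Meg3 locus and that near Slc1a2 at 405 FPKM. The highest was NONRATT030816.2 (chrX:144328458-144329014) with 1308 FPKM, 9368 bp from AABR07041963.1, a gene at 11.7 FPKM. It had 11255, 11690 and 13061 counts in sham and 9243, 10873 and 10416 in BCP, a log2FC of -0.09 (SE 0.03, adjusted p = 0.233 by edgeR). NONRATT030120.2 (chr9:73461144-73462969), 1773 bp from Map2, which encodes a protein of neuronal dendrites, had 251 FPKM and a log2FC of -0.01 (SE 0.03), while Map2 had -0.18. The 10 lncRNAs with most counts held 17.4% of all counts on lncRNAs near genes.

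Gene lists of cell types and pathways were compared by the lncRNAs that had a listed gene as their nearest one, so lncRNAs with a listed gene farther off than another gene are not counted. Of 24 microglia and macrophage genes 22 were tested and 16 up-regulated, and their summed level rose from 536 to 648 CPM in the sham libraries to 1900 to 2414 CPM in the BCP libraries. Cx3cr1 was the one gene among them that was nearest to a lncRNA. In the T and cytotoxic cell list all 15 tested genes were up-regulated, from a summed 8.24 to 9.92 CPM in sham to 103 to 132 CPM in BCP, and 2 lncRNAs near Cd247 were tested without a call. These levels moved with the groups, and their part in the changes of the lncRNAs was not tested.

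The interferon list, with 8 of 26 tested genes up-regulated, had 7 lncRNAs, of which 5 were tested and that near Irf1 was called. Those near Mx1, Isg15 and Irf9 had log2FC of -0.43, -0.41 and 0.08, and the genes had 2.36, 1.09 and 0.30. None of these lncRNAs and genes passed (lowest adjusted p = 0.292 for the lncRNAs and 0.0776 for the genes, by edgeR). Chemokines, cytokines and their receptors had none, although 18 of 19 tested genes of that list were up-regulated. The MHC class II and antigen presentation list has 19 gene symbols, at least 1 of them with more than 1 entry, and 19 of its 20 tested entries were up-regulated. It had 2 lncRNAs near Tapbp, with log2FC of -0.29 and 1.25 that did not pass (adjusted p = 0.831 and 0.222 by edgeR). Tapbp itself had a log2FC of 0.99 and did not pass either (adjusted p = 0.158 by edgeR). The single lncRNAs near genes of the complement and NADPH oxidase lists, beside Axl and Rac2, were below the filter.

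Developmental transcription factors were the list with most lncRNAs, 19 beside 13 genes. Of the 15 tested none was called, with a median log2FC of -0.13 against -0.01 in all tested lncRNAs, and none of the 28 tested genes of the list was either. Among them were 3 beside Hoxb9 with log2FC between -0.10 and 0.04 and 3 beside Hoxb6 between -0.61 and -0.18. NONRATT015221.2 beside Sox2, named after its values were seen, had 39, 45 and 34 counts in sham and 26, 2 and 9 in BCP. Its log2FC of -1.49 (SE 0.73, adjusted p = 0.462 by edgeR) was the lowest of all tested lncRNAs near genes. Sox2 had a log2FC of 0.04. The 4 lists of astrocytes, oligodendrocytes and precursors, neurons, and endothelium, meninges and fibroblasts had 7 lncRNAs beside them. The 3 tested ones lay near Slc1a2, Mobp and Nefm, with log2FC of -0.30, -0.07 and 0.23, and the list of dorsal root ganglion, nerve root and muscle had none.

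Below the filter were 1028 of the 3070 lncRNAs, with a median of 17 counts over all 6 libraries. In 27 of them every sham library was at 0 and in 38 every BCP library. After NONRATT024618.2, the highest of the first kind were NONRATT007063.2 near Iqcg, with 28 and 14 counts in BCP libraries 2 and 3, and NONRATT008580.2 near Nek2, with 6 and 4 in the same libraries. Of the second kind, NONRATT004559.2 near Tlcd2 had 14 counts in sham library 1 alone, NONRATT028296.2 near Zfp560 had 3 in each sham library and NONRATT003586.2 near Ms4a8 had 3, 0 and 5. Most of these counts stood in 1 or 2 libraries, and a difference between the groups was not detectable at this depth.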

How the data were processed

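Per the labels and methods, reads of stranded, rRNA-depleted total RNA were filtered with Seqtk, mapped to Rnor_6.0 with HISAT2 2.0.4 and quantified with StringTie 1.3.0, and the authors deposited unnormalized counts and FPKM of each gene and lncRNA. The counter and its use of strand are not given in the sources used here. Distances were taken between the deposited spans. Genes and lncRNAs were fitted separately in edgeR 4.0.16 (filter by expression, TMM, robust quasi-likelihood fit on the group, Benjamini-Hochberg adjustment over the whole table), and differences from the nearest gene with robust limma 3.58.1 on log2 CPM with a prior count of 2. Standard errors were the log2FC divided by the root of F. DESeq2 1.42.0 was an alternative. The code was tested on simulated counts. The lists, the rule for naming lncRNAs (12 smallest p upwards, all downwards, those named in the paper or beside listed genes, 5 highest FPKM, 5 smallest p of the difference in each direction, 3 at 0 in a group) and the lncRNAs themselves were chosen with earlier results of these data known. The p-values measure the spread between libraries, since nothing states how animals were pooled. Figures were drawn with matplotlib 3.10.9.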

Additional observations from a re-analysis of the deposited data

How the results depend on the processing

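The 31 up-regulated lncRNAs near genes became 20 without the filter on low counts, 47 without a threshold on the fold change, 7 with the replicate block and 10 to 22 with 1 library left out. The absence of down-regulated ones became 1 with DESeq2, 1 with upper-quartile normalization, 19 without a threshold on the fold change and 0 to 1 with 1 library left out. The 76 up-regulated nearest genes became 299 without that threshold and 70 to 79 with 1 library left out. The 1 down-regulated nearest gene became 0 with DESeq2, with at least 10 counts in every library, with library size only, within 5000 bp and with the replicate block, 2 with upper-quartile normalization, 331 without the threshold and 0 to 4 with 1 library left out. Of lncRNAs that changed more than the nearest gene, 0 upwards became 1 without the threshold and 0 to 1 with 1 library left out, and 6 downwards became 3 with at least 10 counts in every library, 0 with the replicate block and 2 to 9 with 1 library left out. Over 394 alternative fits of the 31 lncRNAs, 253 kept the call, 141 lost it and none turned the direction. The labels do not state that the replicate numbers pair the samples. Same-numbered libraries deviated with correlations of -0.02 to 0.01 (lncRNAs) and -0.11 to 0.04 (genes), and not every library correlated best with its own number. With so few libraries these correlations cannot exclude a pairing. Depth left 1028 of the 3070 lncRNAs with too few counts to be tested.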
